A study of Arabidopsis thaliana with 24 samples.

Results

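In developing seeds of Arabidopsis thaliana, 241 nuclear loci stood at least 1 log2 unit lower in polysomal RNA than in total RNA at each of 15, 18 and 20 days after pollination (DAP). They were chosen by that difference between group means, together with a mean total level of at least 5 on the log2 scale over these 3 stages. Loci of the mitochondrial and plastid genomes, and the stretch of chromosome 2 whose identifiers begin with AT2G07, were left out. The table held 27827 loci, and 9634 nuclear loci outside that stretch reached the level of 5, so the 241 made up 2.50% of them. The fraction difference at 15, 18 and 20 DAP chose the loci and is given below as a description. The total and polysomal levels at these stages entered it, so counts of their changes from 15 to 20 DAP describe the chosen loci. The 6 arrays of 12 DAP played no part in the choice, and the fraction difference there was tested.

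The seeds came from unmutated Col-0 plants, the reference accession, with no treatment. Total RNA and polysomal RNA were each measured at 12, 15, 18 and 20 DAP, in 8 groups of 3 arrays. Each replicate was a bulk of several plants from a blocked planting, so the arrays do not show single plants. Whole seeds were extracted, and embryo, endosperm and seed coat were not separated, so fewer cells of a type and less RNA per cell cannot be told apart. The labels name a 3′ GeneChip kit, a labelling method that copies RNA from its poly(A) tail. The values are log2 levels of a probe set per locus, and probe sets of different loci are not ranked by level.

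A messenger RNA that is being translated carries several ribosomes at once, and such polysomes are separated from the rest of the RNA before extraction. RNAs that work without ribosomes are known to stay out of that fraction. They include the small nuclear RNAs (snRNAs), which cut introns out of transcripts in the spliceosome, the small nucleolar RNAs (snoRNAs), which guide chemical changes on ribosomal RNA, and transfer RNAs (tRNAs). In a maturing seed, messengers are also known to be stored without ribosomes until the seed takes up water.

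The 12 DAP arrays stood apart from the later ones. The SD of levels over loci was 1.39 to 1.71 there and 2.13 to 2.43 later, and replicates correlated across loci at 0.739 to 0.851 against 0.955 to 0.990. Of the embryo markers, 6 of 7 had a mean total level of 5 or more, and their median total level was 11.9, 11.7 and 11.5 at 15, 18 and 20 DAP. Median total levels of the seed coat flavonoid, endosperm and silique valve markers were 2.22 to 2.83 over the same stages, and of the seed coat mucilage markers 3.49 to 3.82. EPR1, an endosperm marker, had a total mean of 11.4. Levels of different probe sets do not give the make-up of the seed. None of these 5 marker lists held a polysome-poor locus, but a total mean of 5 was reached by only 2 of 16 flavonoid, 2 of 12 mucilage, 1 of 11 endosperm and 0 of 5 silique valve markers, so most could not meet the rule. PHE1, an endosperm marker, differed by -1.12, -1.94 and -1.65 at the later stages with a total mean of 3.66. The lists' median fraction differences over 15 to 20 DAP lay between -0.34 and -0.07.

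The median total level of the polysome-poor loci was 6.04 at 15, 5.64 at 18 and 5.42 at 20 DAP, and their median polysomal level was 3.22, 3.16 and 3.14. Median fraction differences were -2.66, -2.41 and -2.14 at 15, 18 and 20 DAP, against 0.34, 0.28 and 0.20 over the 9634 nuclear loci. The largest deficit fell at 15 DAP in 159 loci, at 18 DAP in 51 and at 20 DAP in 31. Their total mean was 5 to 6 in 156 loci and 8 or more in 15.

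**Figure D1:**
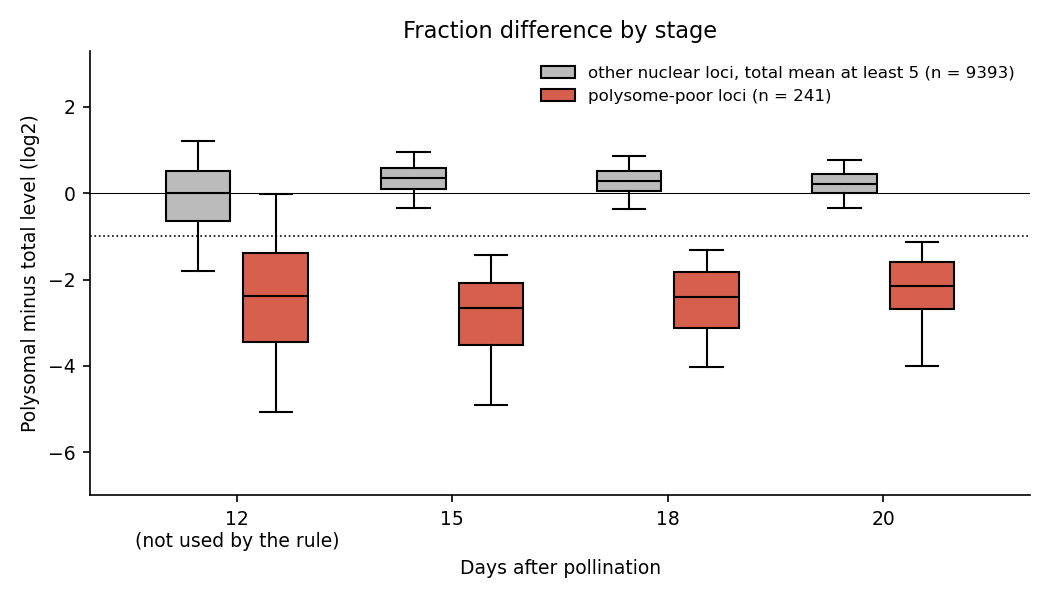
Polysomal minus total level (log2, y axis) by days after pollination (x axis) for the 241 polysome-poor loci and for the 9393 other nuclear loci with a total mean of at least 5. Boxes show the median and quartiles, whiskers the 5th and 95th percentiles, and the dotted line the limit of -1. The lower boxes at 15, 18 and 20 days follow from the choice of loci, while the median of -2.38 at 12 days does not.

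Polysomal RNA was also poor in these loci at 12 DAP, the stage that the choice did not use. There 137 of the 241 (56.8%) were called lower in polysomal RNA (limma on the 6 arrays of 12 DAP, Benjamini-Hochberg adjusted p under 0.05 over all loci), where 4.75% of all loci and 6.01% of the 9634 were. No member was called higher, and 0 were higher at an unadjusted p under 0.05 (187 lower), against 0.906% of all loci and 0.675% of the 9634 called higher. Their median difference was -2.38, against -0.03 over the 9634. The median total level at 12 DAP was 7.05 in the 241 and 5.30 in the 9634, so these sets were not matched for level. A difference below 0 was found in 230 of the 241 (95.4%, against 51.4% of the 9634), and one of -1 or lower in 197 (81.7%, against 17.1%). All 3 polysomal arrays lay below all 3 total arrays in 166 members, as they did in 12.5% of all loci. A missing call at 12 DAP does not show that the fractions were alike there, given the spread of these arrays.

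**Figure D2:**
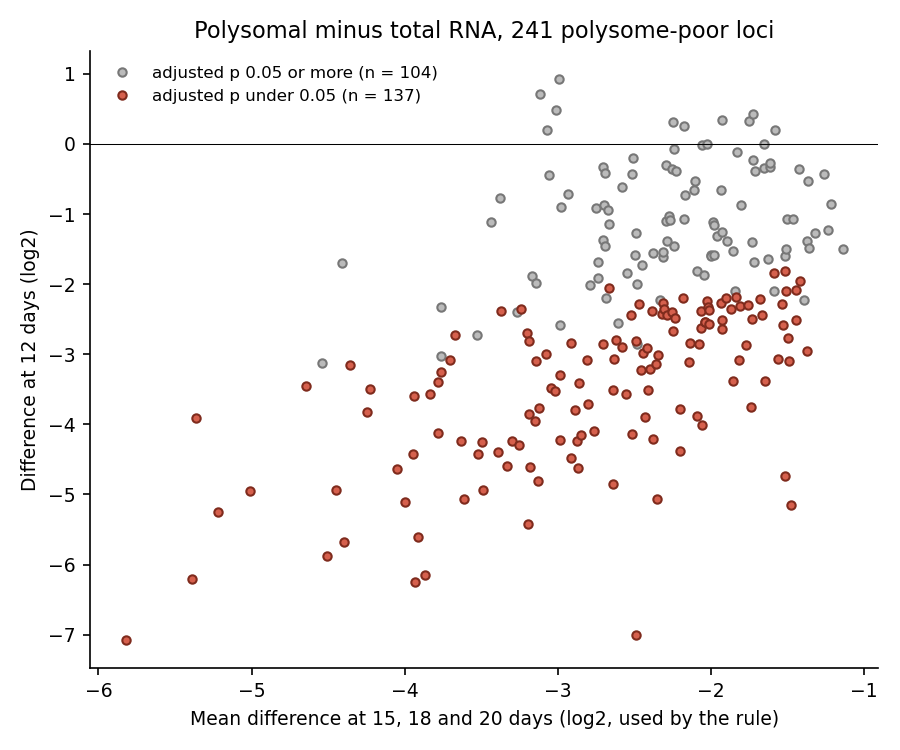
Each point is 1 of the 241 polysome-poor loci, with its mean fraction difference at 15, 18 and 20 days (log2, x axis) against its difference at 12 days (log2, y axis). The 137 loci with an adjusted p under 0.05 at 12 days all lie below the zero line, and 11 loci lie above it.

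Genes for snRNAs and snoRNAs met the rule more often than protein-coding genes of all lengths together. The labelling copies RNA from a poly(A) tail, so which form of these RNAs the probe sets read cannot be told here. Of 34 snRNA and snoRNA genes with a total mean of at least 5, 9 (26.5%) were polysome-poor, against 205 of 9428 protein-coding genes (2.17%). They were 3 of 4 snRNA genes and 6 of 30 snoRNA genes. A further 6 of 38 genes of the class ncRNA, 3 of 56 long non-coding RNA genes and 1 of 2 tRNA genes met the rule, and 0 of 5 microRNA genes did. Short protein-coding genes met it at least as often as snRNA and snoRNA genes, at 42.9% under 300 bp and 27.2% from 300 to 599 bp. The classes were not matched for length. The median differences of the 10 snRNA, snoRNA and tRNA members were -1.67 over the later stages and -1.38 at 12 DAP. There 4 of the 10 were called lower, where 56.8% of all members and 4.75% of all loci were.

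U1.5 encodes a U1 snRNA, which recognises the start of introns. Its total levels were 10.58, 10.30 and 10.60 at 15 DAP, 10.91, 10.85 and 10.92 at 18 DAP and 10.77, 11.03 and 10.87 at 20 DAP. Its polysomal levels were 8.93, 8.03 and 7.90, then 8.66, 8.96 and 8.16, then 8.90, 8.93 and 8.09. The fractions were far apart at all 3 later stages, with differences of -2.21, -2.30 and -2.25. At 12 DAP they overlapped: the total arrays read 11.22, 11.10 and 11.24 and the polysomal arrays 10.31, 11.27 and 10.88, a difference of -0.36 ± 0.48 (SE, limma adjusted p = 0.71).

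U12 and U6acat belong to the minor spliceosome, which removes a rare class of introns. The total levels of U12 at 12 DAP were 9.19, 8.51 and 8.50 and its polysomal levels 6.40, 6.36 and 6.79. These arrays did not overlap, and the difference was -2.21 ± 0.47 (limma adjusted p = 0.0096). At 15, 18 and 20 DAP it was -1.68, -1.64 and -1.73, so U12 stood at similar deficits at all 4 stages. U6acat read 7.12, 6.43 and 6.46 in total and 5.24, 4.09 and 5.22 in polysomal RNA at 12 DAP, again without overlap (-1.82 ± 0.51, limma adjusted p = 0.043). Its total level rose by 0.88 ± 0.21 from 15 to 20 DAP (limma adjusted p = 0.0083), from 6.95, 6.39 and 6.83 to 7.63, 7.47 and 7.71. Its polysomal change over the same days was 0.52 ± 0.21 (adjusted p = 0.14). The remaining snRNA gene with a total mean of at least 5, U2.3, differed by 0.31, -0.28 and 0.08 at the later stages.

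SNOR30 is a snoRNA gene. Its total arrays read 8.91, 8.48 and 8.26 at 15 DAP and 9.22, 9.37 and 9.27 at 20 DAP. Its polysomal arrays read 7.62, 6.50 and 6.36 at 15 DAP and 7.20, 7.65 and 6.85 at 20 DAP. The groups were separate at these stages, with differences of -1.72 and -2.06, whereas at 12 DAP the difference was 0.34 ± 0.47 (limma adjusted p = 0.72). AT5G66564 was called lower on polysomes at 12 DAP (-3.57 ± 0.81, limma adjusted p = 0.015). Its total level was uneven among replicates, at 4.32, 7.19 and 7.42 at 18 DAP and at 4.54, 7.96 and 7.39 at 20 DAP. AT2G35382 rose in total RNA from 6.17, 5.15 and 4.53 at 15 DAP to 6.49, 7.09 and 6.57 at 20 DAP (1.43 ± 0.35, limma adjusted p = 0.0084). SNOR105, SNOR111 and AT5G13225 had mean differences of -1.36, -1.14 and -1.66 over the later stages, and none of these 3 was called at 12 DAP (adjusted p = 0.63, 0.12 and 1).

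The snoRNA genes ranged from clear later deficits to differences near 0. Over the 30 with a total mean of at least 5 the median later difference was -0.89, against 0.28 for protein-coding genes of all lengths. The gap was not tested. AT2G35742 missed the limit by its 20 DAP difference of -0.9942, after -2.64 and -1.44 at 15 and 18 DAP. AT2G05765, with a total mean of 8.99, differed by -1.61, -0.96 and -0.70. AT1G07702 differed by 0.00, -0.04 and -0.01. The tRNA gene AT3G11395 had differences of -2.26, -3.00 and -3.71 at the later stages and was called lower at 12 DAP (-3.30 ± 0.86, limma adjusted p = 0.032). The other tRNA gene, AT1G28730, differed by 0.70, 0.65 and 0.80.

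**Figure D3:**
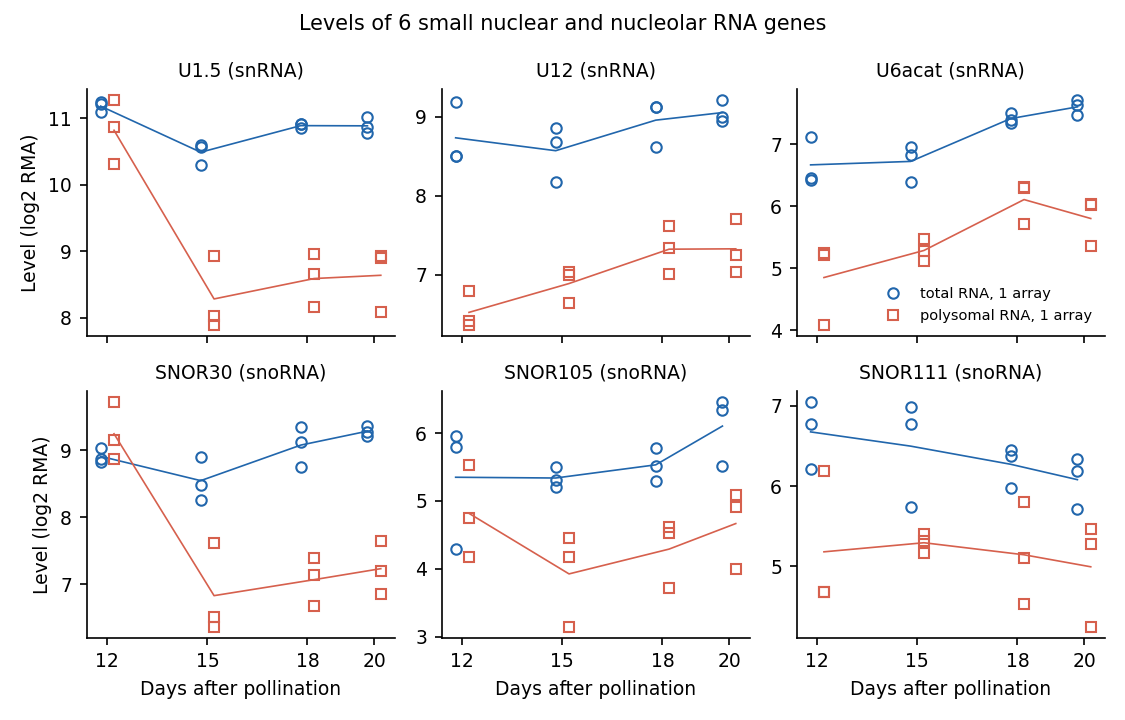
Levels (log2 RMA values, y axis) of 3 snRNA and 3 snoRNA genes by days after pollination (x axis). Each circle is a total RNA array and each square a polysomal RNA array, 3 per group, and lines join group means. U1.5 and SNOR30 overlap between the fractions at 12 days and separate from 15 days on, while U12 and U6acat are separate at all 4 stages.

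Longer non-coding RNAs were also among the members. AT1G15405, of the class ncRNA, read 12.25, 11.96 and 11.87 in total and 10.29, 9.67 and 9.67 in polysomal RNA at 15 DAP. By 20 DAP the total arrays read 11.39, 11.40 and 11.28 and the polysomal arrays 8.25, 9.08 and 7.94. Its polysomal level fell by 1.45 ± 0.25 from 15 to 20 DAP (limma adjusted p = 0.001), and the total change was -0.67 ± 0.25 (adjusted p = 0.07). At 12 DAP its fractions differed by -0.33 ± 0.46 (adjusted p = 0.72). AT3G41761 and the protein-coding gene AT3G41762, whose bounds overlap in the gene table, moved together, with total means of 11.5 and 11.2 and 12 DAP differences of -3.07 ± 0.60 and -2.98 ± 0.57 (limma adjusted p = 0.0051 and 0.0043). Their signals may not be separable on an array. Bounds of other members overlap another gene too, among them AT1G15405, AT2G31141, AT3G59068, U6acat, EXT10, AGP26, SDG21 and PRK. Those of AT1G15002 and AT3G55485 overlap a snoRNA gene. The same limit holds for all of these members.

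Among the other ncRNA and long non-coding members, AT1G64618 read at 12 DAP 8.07, 7.62 and 7.61 in total against 3.74, 3.79 and 3.09 in polysomal RNA, a difference of -4.23 ± 0.47 (limma adjusted p = 2.3e-05). AT3G60176 was called lower there too (-2.44 ± 0.55, adjusted p = 0.014). AT3G59068, a long non-coding RNA gene, rose in total RNA by 0.72 ± 0.20 between 15 and 20 DAP (limma adjusted p = 0.017). AT1G70185 rose in polysomal RNA, from 2.81, 2.95 and 3.15 to 5.04, 4.76 and 3.66 (1.52 ± 0.35, limma adjusted p = 0.0085). Its total level ran from 5.01, 5.64 and 4.95 to 5.57, 6.0 and 6.16, so the fractions still did not overlap at 20 DAP.

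Short protein-coding genes met the rule more often than long ones. In the gene table, 42.9% of protein-coding genes under 300 bp with a total mean of at least 5 were polysome-poor (24 of 56), 27.2% of those of 300 to 599 bp (25 of 92), and 7.80% of those of 600 to 1199 bp (52 of 667). The share was 2.02% from 1200 to 2399 bp (74 of 3663) and 0.606% at 2400 bp and over (30 of 4950). Genes under 300 bp and of 300 to 599 bp were 11.7% and 12.2% of the protein-coding members, and those of 1200 to 2399 bp 36.1%. The median length was 1235 bp in the 205 protein-coding members and 2473.5 bp in the 9428. Median differences at 12 DAP, in the same order of length, were -2.60, -2.64, -2.85, -2.50 and -1.54. Few members had a gene symbol, 45 of 241 (18.7%) against 44.8% of the 9634. A further 16 members were not in the gene table, of 58 such loci with a total mean of at least 5 (27.6%).

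**Figure D4:**
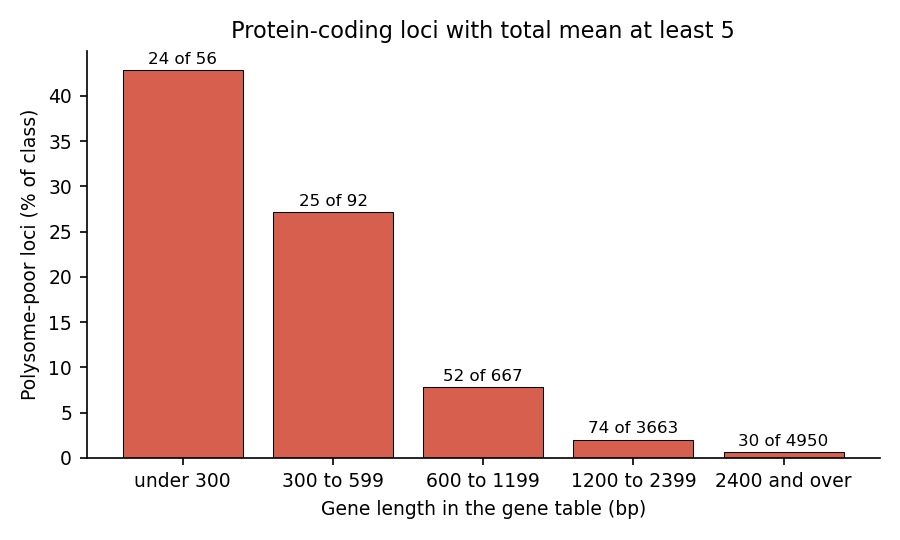
Share of protein-coding loci with a total mean of at least 5 that were polysome-poor (%, y axis), by gene length in the gene table (bp, x axis), with the numbers of loci above the bars. The share is 42.9% under 300 bp and 0.606% at 2400 bp and over.

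Members lay among pseudogenes more often than nuclear loci with a total mean of at least 5 as a whole. This was not tested, and the sets were not matched for gene length. At least 10 of the 20 nearest genes were pseudogenes for 11 of 225 members with a position (4.89%), against 140 of 9576 loci (1.46%). There were 7 pairs of adjacent members, among them AT4G08370 with AT4G08380 and AT3G20362 with AT3G20365. AT3G20365, a pseudogene that the table also lists as a tyrosine tRNA, gave the same values as the plastid locus ATCG00240 on all 24 arrays, so its signal cannot be assigned. By chromosome, the members' share of loci with a total mean of at least 5 ran from 2.08% on chromosome 4 to 3.08% on chromosome 3.

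The lowest mean later differences were those of AT1G34910 and AT1G55990. Neither has a symbol in the gene table, and few members do. AT1G34910, a protein-coding gene of 501 bp, read 9.01, 8.87 and 8.52 in total RNA at 15 DAP and 6.96, 8.09 and 8.11 at 20 DAP. Its polysomal levels were 3.49, 3.05 and 3.92 at 15 DAP and 2.43, 2.97 and 1.15 at 20 DAP. At 12 DAP it read 9.07, 10.36 and 10.19 in total and 1.35, 1.80 and 5.26 in polysomal RNA, and the difference of -7.07 ± 0.78 was the lowest of any member (limma adjusted p = 2.1e-05). AT1G55990, of 465 bp, read 9.48, 9.41 and 8.38 against 2.65, 3.33 and 2.66 at 12 DAP (-6.21 ± 0.50, limma adjusted p = 5.8e-07), and its mean later difference was -5.39. No array of either gene in polysomal RNA reached any of its total RNA arrays at any stage.

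The 12 lowest mean later differences ran from -5.82 in AT1G34910 to -4.36 in AT1G26240. Between them stood AT4G08370, AT2G11778, EXT10, AT4G38401, AT2G04870, AT4G08967, AT2G11570, AGL51 and AT4G09649, besides AT1G55990. Of these 12 genes 10 were called lower at 12 DAP, and AT2G04870 and AGL51 were not (limma adjusted p = 0.098 and 0.34). The total replicates of both were far apart at 12 DAP, at 2.10, 6.95 and 8.47 in AT2G04870 and at 2.78, 8.12 and 6.02 in AGL51. AT2G01023, AT5G03944, AT1G44990 and AT4G08967, with 12 DAP differences of -7.01, -6.25, -6.14 and -5.88, completed the 6 largest called there. In AT2G01023, a gene of 120 bp, the deficit was -3.62, -2.04 and -1.81 at the later stages.

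Symbols grouped some members by known role. The groups described next were set up after the values had been seen, and genes in them outside the naming rule were chosen the same way. Over all 241 members 56.8% were called lower at 12 DAP, with a median difference of -2.38, and 4.75% of all loci were called lower. No group was tested against these shares. Of 7 genes for the cell wall and cell surface, 6 were called lower at 12 DAP, with a median of -3.88. EXT10, an extensin of the cell wall, read 6.85, 8.43 and 8.04 in total against 2.56, 2.61 and 3.32 in polysomal RNA at 12 DAP (-4.95 ± 0.53, limma adjusted p = 1.3e-05). At 20 DAP it read 4.58, 6.56 and 7.36 against 2.10, 1.72 and 1.89. The fractions of EXT10 were apart at every stage, and its total replicates were spread at 20 DAP. AGP26, an arabinogalactan protein of the cell surface, read 9.29, 9.25 and 9.09 against 4.61, 5.36 and 5.04 at 12 DAP (-4.20 ± 0.47, limma adjusted p = 2.2e-05). Its total level fell by 0.86 ± 0.27 from 15 to 20 DAP (limma adjusted p = 0.035). GATL3, a galacturonosyltransferase-like gene, and GRP17, a glycine-rich protein known from the pollen coat, had 12 DAP differences of -3.88 ± 0.50 and -4.39 ± 0.56 (limma adjusted p = 0.00012 and 9.2e-05). EXT6 was the exception, at -2.33 ± 0.69 (adjusted p = 0.06).

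Of 10 receptor and kinase genes 4 were called lower at 12 DAP, with a median of -1.83. RLP20, RLP24, RLP28 and RLP42 encode receptor-like proteins, and none of these 4 was called (limma adjusted p = 0.17, 0.15, 0.51 and 0.076). RLP20 read 6.33, 7.17 and 5.79 in total against 2.92, 2.02 and 2.92 in polysomal RNA at 15 DAP, and at 12 DAP its 4.19, 7.84 and 8.26 overlapped with 5.56, 4.62 and 4.17. IMK2, a receptor-like kinase of meristems, was called lower at 12 DAP (-2.27 ± 0.47, limma adjusted p = 0.0071). Its total level fell by 1.72 ± 0.31 between 15 and 20 DAP (limma adjusted p = 0.0013), and its polysomal level changed by -0.25 ± 0.31 (adjusted p = 0.72). PPCK2, which phosphorylates phosphoenolpyruvate carboxylase, was called lower at 12 DAP at -2.40 ± 0.50 (limma adjusted p = 0.0078).

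Of 8 genes for transcription factors and development, 5 were called lower at 12 DAP, with a median of -2.30. WOX10, a homeobox gene, read 7.84, 7.93 and 5.84 in total against 2.76, 3.07 and 3.06 at 12 DAP (-4.24 ± 0.57, limma adjusted p = 0.00016). Its total level fell from 6.18, 6.48 and 6.22 at 15 DAP to 4.59, 5.41 and 5.42 at 20 DAP (limma adjusted p = 0.0057). OFP10, MYB120 and WRKY27 were called too, at -3.52, -2.39 and -2.20, as was OPS, a gene of phloem formation, at -2.08. SHR, a regulator of root patterning, was not called (-1.31 ± 0.49, limma adjusted p = 0.13), nor were the MADS-box genes AGL51 and AGL78 (-1.70 and -2.72, adjusted p = 0.34 and 0.16).

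Chromatin and small RNA genes had 12 DAP differences nearer 0 than these groups, a difference between groups that was not tested. None of the 5 was called there, and their median was -0.12. AGO7, an Argonaute protein that binds a microRNA, read 4.53, 5.10 and 4.95 in total and 5.09, 5.01 and 5.07 in polysomal RNA at 12 DAP (0.20 ± 0.46, limma adjusted p = 0.85). At 15 DAP it read 5.03, 4.82 and 5.61 against 3.84, 3.24 and 4.24, and at 20 DAP 5.03, 5.15 and 5.80 against 3.56, 3.47 and 4.02. The fractions thus overlapped at 12 DAP and were separate at the later stages. FDM1 and CHR38, both of the pathway that silences DNA through small RNAs, differed by -0.28 and -0.12 at 12 DAP and by -1.61 and -1.83 on average later. SDG21 differed by -1.61 ± 0.57 at 12 DAP (adjusted p = 0.11).

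Enzymes and a transporter made up a group of 8, of which 3 were called lower at 12 DAP. PUP4, of a family of purine transporters, read 8.68, 8.71 and 9.05 in total against 5.54, 5.60 and 4.79 at 12 DAP (-3.50 ± 0.48, limma adjusted p = 0.00019). Its total level fell by 1.55 ± 0.37 from 15 to 20 DAP (limma adjusted p = 0.008). CAD3, of the cinnamyl alcohol dehydrogenase family, and HEMA3, a glutamyl-tRNA reductase of the route to chlorophyll, were called at -2.57 ± 0.60 and -2.67 ± 0.57 (limma adjusted p = 0.016 and 0.0093). PRK, a Calvin cycle kinase, was not (-1.07 ± 0.49, adjusted p = 0.22). Both members for cell division and replication were called, CDC20.3, of an activator family of the anaphase-promoting complex, at -2.36 ± 0.55 (limma adjusted p = 0.017), and AT4G19130 at -2.36 ± 0.58 (adjusted p = 0.024).

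Messengers of SR proteins, a family of splicing factors, were not polysome-poor by the rule. None of their 18 genes met it, and 16 of them reached the total mean of 5. Their median difference was 0.32 over the later stages and 0.44 at 12 DAP, where 0 of the 18 were called by limma. Mean later differences were below 0 in 2 of the 18, SCL28 and RS31a. None of 15 genes known to carry a conserved peptide upstream of the main reading frame met the rule either, but only 5 of the 15 reached that total mean. Their median was 0.39 later and -0.24 at 12 DAP, with 1 of the 15 called lower.

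Of the 15 members with a total mean of 8 or more, 8 were called lower at 12 DAP and 7 were not, where 56.8% of all members were called lower. The 7 were U1.5, SNOR30, AT1G15405, AT1G68945, AT2G31141, AT3G63052 and AT3G07850, with 12 DAP differences between -0.87 and 0.43. AT2G31141 read 10.94, 10.88 and 10.23 in total and 10.90, 10.49 and 10.63 in polysomal RNA at 12 DAP. It then read 10.59, 10.50 and 10.55 against 9.53, 9.01 and 9.02 at 15 DAP, and 9.67, 9.59 and 9.53 against 7.12, 7.19 and 6.82 at 20 DAP. Its fractions overlapped at 12 DAP and drew apart afterwards. Between 15 and 20 DAP its polysomal level fell by 2.14 ± 0.19 (limma adjusted p = 2.7e-06) and its total level by 0.95 ± 0.19 (adjusted p = 0.003).

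AT3G63052 had the largest step in this set. It read 10.08, 9.93 and 9.74 in total and 9.32, 9.36 and 9.73 in polysomal RNA at 12 DAP, and 9.49, 9.18 and 9.29 against 6.47, 5.39 and 5.45 at 15 DAP. AT1G68945 is a protein-coding gene of 489 bp whose bounds overlap those of a snoRNA gene in the gene table. Among the 205 protein-coding members it alone overlapped a snRNA, snoRNA or tRNA gene (0.488%, against 75 of 9428, 0.796%). Its total level was 7.55, 5.79 and 6.01 at 12 DAP, 9.43, 9.18 and 9.22 at 15 DAP and 9.85, 9.86 and 9.99 at 20 DAP. Both its fractions rose by 0.62 ± 0.17 from 15 to 20 DAP (limma adjusted p = 0.016 in total and 0.022 in polysomal RNA).

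Total levels of the polysome-poor loci differed between replicates. The rule used the means of these arrays, so a locus high on 1 total array could meet it more easily. At 18 DAP their median level was 5.04 on total replicate 1, 5.61 on replicate 2 and 6.54 on replicate 3. Of the 241, 204 (84.6%) were highest on replicate 3, against 1410 of the 9393 other nuclear loci with a total mean of at least 5 (15.0%). The level on replicate 3 minus the mean of the other 2 arrays had a median of 1.15 and exceeded 1 in 142 members, against -0.23 and 58 of the 9393. The median SD between replicates at this stage was 0.791 in members and 0.221 in the others. At 12 DAP, which the rule did not use, it was 0.679 and 0.518. At 15 DAP 152 of the 241 (63.1%, against 31.5% of the 9393) were highest on total replicate 2, and at 20 DAP 118 (49.0%, against 25.3%) on total replicate 3. Few members were highest on total replicate 1, at 14.5%, 3.73% and 12.4% for 15, 18 and 20 DAP. Those shares were 42.3%, 50.5% and 40.9% in the 9393. Polysomal medians stayed between 3.13 and 3.26 on all 9 later arrays. The median over all loci of the mean polysomal level was 3.68 and the lower quartile 2.22, and 19 of the 241 lay below that quartile. Why the polysomal replicates were closer together was not tested.

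The shared replicate pattern did not hold for every kind of member. Of the 10 snRNA, snoRNA and tRNA members, 4 were highest on total 18 DAP replicate 3. Among the 15 members with a total mean of 8 or more the median excess on that array was 0.03 and 7 lay below 0, and it was 1.19, 1.23 and 1.17 in members with total means of 5 to 6, 6 to 7 and 7 to 8. U1.5, for example, read 10.91, 10.85 and 10.92, and AT2G11778 5.16, 8.23 and 9.19. Outside the 241, 819 nuclear loci met the difference limit with total means under 5, and 664 of them were highest on the same array. Without it the rule found 202 loci, 201 of them among the 241. At 12 DAP, where 137 were called, total medians of the members were 6.57, 7.40 and 7.32. The part of this array in the results was not tested.

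**Figure D5:**
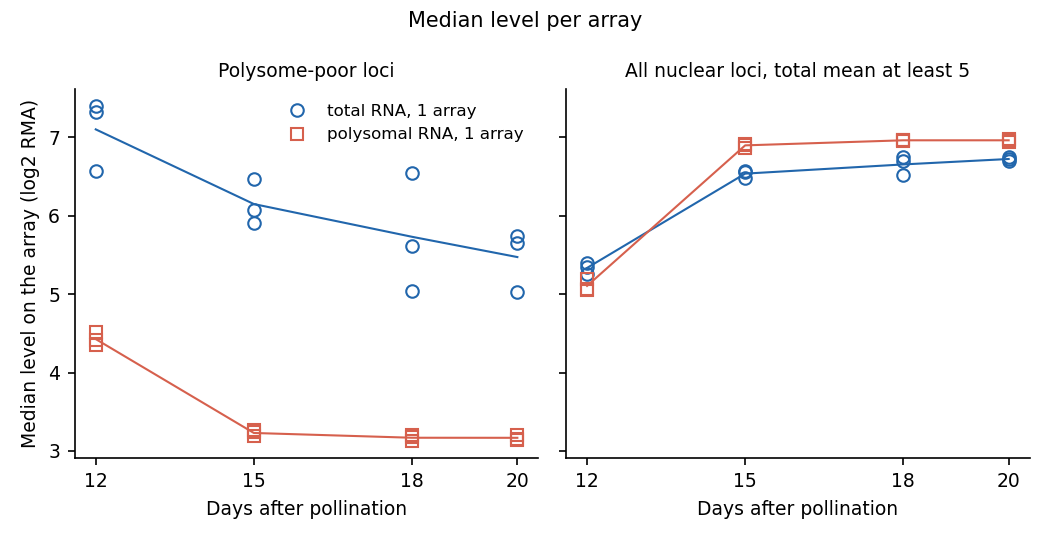
Median level (log2 RMA values, y axis) on each array by days after pollination (x axis), for the 241 polysome-poor loci and for the 9634 nuclear loci with a total mean of at least 5. Circles are total RNA arrays, squares polysomal RNA arrays, and lines join group means. Members range from 5.04 to 6.54 over the total arrays of 18 days and from 3.13 to 3.20 over its polysomal arrays.

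Between 15 and 20 DAP the polysome-poor loci fell in total RNA more often than they rose. The rule used these arrays, so the counts in both fractions, and the shares beside them, describe the chosen loci only. By limma over the 18 later arrays, 42 of the 241 (17.4%) fell and 5 (2.07%) rose, where 7.7% of all loci fell and 11.5% rose. Among the 9634, 8.53% fell and 24.9% rose. The median change of the members was -0.70, against 0.19 over the 9634. The largest falls were in AT1G79170, AT2G10608, AT3G43153, AT5G29044, AT5G28450 and AT3G52520, from -2.39 to -1.98. AT5G28450 read 6.28, 6.45 and 5.93 at 15 DAP and 3.66, 4.4 and 4.59 at 20 DAP (-2.0 ± 0.39, limma adjusted p = 0.002). AT3G43153 read 7.77, 8.38 and 8.04 and then 3.47, 7.58 and 6.18 (-2.32 ± 0.69, adjusted p = 0.027), and without total 20 DAP replicate 1 its change was -1.18 and not called. That array also took AT3G52520 from -1.98 to -1.11. Without it 13 members fell. Without total 15 DAP replicates 2 or 3 it was 21 or 27, with 51 as the highest count when 1 array of these stages was left out. Shares over all loci were not taken under these settings. Whether members still fell more often than other loci there is therefore not known. The 5 that rose were AT2G35382, U6acat, AT3G59068 and AT1G68945, given above, and AT5G46440 (1.13 ± 0.32, limma adjusted p = 0.02). Leaving out 1 array at a time ended the call of AT1G79170, AT3G43153, AT5G29044 and AT3G52520 among the falls (each without total 15 DAP replicate 2, and each without total 20 DAP replicate 1). Among the rises it ended that of AT5G46440, AT3G59068 and AT1G68945, and 3 rises were left without total 20 DAP replicate 3 or total 15 DAP replicate 1.

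In polysomal RNA few members changed over the same days. By limma 4 rose (1.66%) and 6 fell (2.49%), where 7.18% and 5.4% of all loci and 13.8% and 9.02% of the 9634 did, and the median change was -0.09. Besides AT1G70185 and AT1G68945, AT2G24683 and AT1G27160 rose by 1.51 ± 0.47 and 1.29 ± 0.37 (limma adjusted p = 0.044 and 0.029). Without polysomal 20 DAP replicate 1 none of the members was called higher, and 1 was without polysomal 20 DAP replicate 2 or polysomal 15 DAP replicates 2 or 3. The falls were in AT2G31141 and AT1G15405, given above, and in AT4G11320, AT1G05450, AT2G15980 and AT3G20362. AT4G11320, which the table also lists as cysteine protease 2, read 6.35, 6.30 and 6.60 in polysomal RNA at 15 DAP and 5.20, 5.40 and 4.69 at 20 DAP (-1.32 ± 0.32, limma adjusted p = 0.012). Its total level fell from 8.06, 8.15 and 7.97 to 5.81, 6.56 and 6.67 (-1.71 ± 0.32, adjusted p = 0.0016), so both fractions fell. Leaving out 1 polysomal array of 15 or 20 DAP at a time ended the calls of AT4G11320, AT1G05450 and AT3G20362 in at least 1 case each, and those of AT2G31141, AT1G15405 and AT2G15980 in none.

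The change of the fraction difference from 15 to 20 DAP was called in none of the members by limma (0.0647% of all loci were called higher and 0.0144% lower, and of the 9634 0.0415% and 0.0104%). At an unadjusted p under 0.05, 37 members were higher and 2 lower. The rule held both differences at -1 or lower, which restricts this change, and nothing is read from these counts.

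Values near the limit ran without a gap. Just inside it stood GLY1, AT2G05790 and AT5G66070, whose highest later differences were -1.01, -1.02 and -1.03. Just outside stood AT5G15340, AT2G35742 and AT5G08310, at -0.9963, -0.9942 and -0.9916. The reverse rule, a polysomal level at least 1 higher at each later stage, found 10 loci. The same rule applied to the 204 mitochondrial, plastid and AT2G07 loci with a total mean of at least 5 found 93 (45.6%).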

How the data were processed

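The deposited log2 values of the 24 arrays were made by the authors with RMA, per the submitters' processing notes, with no version given in the sources used here. RMA corrects background, normalizes arrays to one another and summarizes probes, so a fraction difference is set against all transcripts measured. Which arrays were normalized together, the array design and a genome build are not given in the sources used here, and no coordinates are printed. Arrays hold no count depth, and their number, 3 per group, limits the precision.

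Names, classes, lengths and order of loci came from RefSeq's annotation of TAIR10.1, which held 27241 of the 27827 loci and 225 of the 241 members. The annotation gives no product text, so the members' keyword roles used symbols and synonyms alone, and 181 members matched no role.

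All loci were tested with limma 3.58.1 in R 4.3.3, and p values were adjusted over all of them after Benjamini and Hochberg (threshold 0.05). The 12 DAP contrast used the 6 arrays of that stage (4 residual degrees of freedom), because spread shared with the later arrays would understate theirs. Changes from 15 to 20 DAP used the 18 later arrays in 6 groups (12 residual degrees of freedom). The fits were tested on simulated data. With few loci changed, the 12 DAP fit called none of them, so a missing call there carries little weight. The changes within a fraction and the choice of loci share arrays.

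The members and lists were chosen with earlier results of these data known. The naming rule took the 12 lowest mean later differences, the 3 loci on either side of the limit, the 4 members with the highest total mean in each keyword role, the 6 largest called changes in each direction of each contrast, and non-coding RNA members up to 12. Other genes named were chosen after their values were seen. The values of 1 gene that this rule names are not reported here. Over all loci, replicate numbers did not pair the arrays: correlations of same-numbered deviations ran from -0.03 to 0.12. In the members alone these correlations were not taken, and total replicate 1 had their lowest median at every stage. No sequence is shown, since none was used here.

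Alternatives were other normalizations, all arrays in 1 fit, a filter on dim loci, a replicate block, other limits of the rule and leaving out arrays. Array weights at 12 DAP, and later fits without total 18 DAP replicate 3, were added after seeing the data.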

Additional observations from a re-analysis of the deposited data

Results flagged for a closer look

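AT3G07850 and AT4G23432 were drawn out because all 3 polysomal arrays lay above all 3 total arrays at 12 DAP and below all of them at each of 15, 18 and 20 DAP. AT3G07850, a protein-coding gene, read 11.07, 10.94 and 10.38 in total and 11.11, 11.44 and 11.13 in polysomal RNA at 12 DAP, a difference of 0.43. Its later differences were -1.81, -1.80 and -1.57. AT4G23432, which is not in the gene table, read 4.51, 4.69 and 4.64 against 5.07, 4.96 and 5.24 at 12 DAP, a difference of 0.48, and its later differences were -3.20, -3.25 and -2.59. The change of the fraction difference from 12 DAP to the later stages was not tested, and limma called neither 12 DAP difference (adjusted p = 0.65 and 0.59).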

How the results depend on the processing

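The count of polysome-poor loci called lower at 12 DAP was 121 to 188 under the other settings tried, among them 123 after repeated quantile normalization, 121 after cyclic loess, 148 with a replicate block and 188 with all 24 arrays in 1 fit, and 104 to 148 when 1 array was left out. In that fit over 24 arrays 15.4% of all loci were called lower, against 4.75%. The rule found 1060 loci with no floor on the total mean and 28 with a floor of 7. Quantile normalization gave 287 loci, 237 of them among the 241, and centring on medians gave 197. Leaving out 1 array gave 202 to 273. The reverse rule, 10 loci as deposited, found 0 after quantile normalization or cyclic loess and 89 after centring on medians, which took the median difference of all loci at 15 DAP from 0.07 to 0.35.

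Members that rose in total RNA from 15 to 20 DAP numbered 0 with all 24 arrays in the fit, 2 after cyclic loess and 3 to 5 with 1 array left out. Those that fell numbered 15 with all 24 arrays and 13 to 56 with 1 array left out, and shares over all loci were not taken under these settings. In polysomal RNA the rises were 1 with all 24 arrays, 2 after quantile normalization, 2 after cyclic loess and 0 to 4 with 1 array left out, and the falls were 3 with all 24 arrays and 4 to 9 with 1 array left out. The change of the fraction difference gave 0 calls under every other setting tried but 1. Without total 18 DAP replicate 3 it gave 1, AT5G28450, named after its value was seen, and the rule restricts this change. Over 27 single results no direction turned, and 66 of 351 alternatives ended a call. The causes were not tested. The replicate block moved no count by over 1.5 times and ended none of the counts given here.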
